A study of Mus musculus with 16 samples.

Results

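Messenger RNA was measured in quadriceps femoris muscle for 49 genes of the splicing machinery, out of 16593 genes that the arrays name. They are all genes whose platform symbol begins with Srsf, Hnrnp, Snrp, Sf3a or Sf3b, together with Ddx5 and Ddx17. By role they comprised 9 SR proteins, 18 heterogeneous nuclear ribonucleoproteins (hnRNPs), 7 Sm core proteins, 4 other proteins of the U1 and U2 small nuclear ribonucleoproteins (snRNPs), 3 SF3A subunits, 6 SF3B subunits and 2 DEAD-box helicases. The arrays carried 90 probes for these genes, 1 probe for 23 of them and up to 5 for the others, and each gene was represented by its brightest probe, the one with the highest mean of the 16 arrays. Male C57BL/6 mice aged 22 months ate standard chow alone (control diet, n = 5), the same chow with 0.27% (w/w) ursolic acid (n = 6) or the same chow with 0.05% (w/w) tomatidine (n = 5). After 2 months, at the age of 24 months, muscle was taken and each mouse gave 1 Illumina Mouse Ref-8 version 2 BeadChip array. Tomatidine is a steroidal alkaloid and ursolic acid a pentacyclic triterpene acid, and their doses differed. No young mice were on these arrays, and both compounds were compared with the same control mice.

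Introns are removed from pre-mRNA by the spliceosome, which is built on each intron from snRNPs. The U1 snRNP pairs with the 5′ splice site and the U2 snRNP with the branch point, where SF3A and SF3B, parts of the U2 snRNP, hold it in place, and a ring of Sm proteins surrounds the RNA of most spliceosomal snRNPs. SR proteins bind enhancers in exons and recruit these particles, whereas hnRNPs coat nascent transcripts and often act against exon inclusion. Several SR and hnRNP genes limit their own mRNA through exons that trigger its decay. Muscle is known for a dense program of alternative splicing in its sarcomere and calcium-handling genes.

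The values are log2 signals as the authors deposited them, so a difference of 1 would be a doubling of signal. Signals in muscle were at least 8.5 in the mean for 32 of the 49 members, and the other 17 lay near the bottom of the scale, where the lowest signal on an array was 7.87 to 7.90 and the median 8.02 to 8.03. Among all genes, 27.1% reached 8.5. Between mice of 1 diet the SD was 0.05 to 0.18 (median 0.09) for the 32 brighter members and 0.02 to 0.07 for the 17 dim ones. The muscle fibre markers fixed for the check (Acta1, Ckm, Myh4 and 5 others) had a mean signal of 14.0 to 14.3 in every mouse. Control mouse 5 stood apart from the other controls for these genes, with the highest control signal for 17 of the 32 brighter members, while control mouse 2 had the lowest for 14. Tomatidine mouse 4 lay away from all other arrays on the first principal component of all probes, at 14.6. Tomatidine mouse 3 (7.11) and control mouse 5 (5.84) came next, against -6.34 to 2.51 for the remaining arrays. Control mice 2, 3 and 4 lay at -6.34, -5.89 and -5.17 and control mouse 1 at -0.18. The controls were thus spread out over all probes, with control mouse 5 at the upper end. Results that depend on these mice are given with and without them. Control mouse 5 was singled out by the signals of these members, so values without it are no separate support for a change.

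With ursolic acid, 6 of the 49 members rose and none fell on the brightest probe of each gene. They were Srsf5, Hnrnpa2b1, Ddx5, Hnrnph1, Hnrnpk and Ddx17, with log2 changes of 0.28, 0.25, 0.18, 0.15, 0.13 and 0.09. With tomatidine, 3 members rose and none fell on these probes, namely Hnrnpc by 0.24, Hnrnpa2b1 by 0.19 and Ddx17 by 0.10. Rose and fell refer throughout to an unadjusted p of 0.025 or less in limma's 2-sided test, the study's own threshold. At that threshold 2.81% of all 16593 genes rose and 2.86% fell with ursolic acid, and 2.68% rose and 3.38% fell with tomatidine. Among the 4498 genes with a mean signal of 8.5 or more, to which every member that rose belongs, 6.2% rose and 6% fell with ursolic acid (6 and 0 of 32 members), and 5.71% rose and 7.65% fell with tomatidine (3 and 0 of 32 members). By limma with Benjamini-Hochberg adjustment over all 25697 probes, no member reached an adjusted p of 0.1 in either comparison, although 11 members lay under an unadjusted p of 0.05 with ursolic acid (10 higher and 1 lower) and 5 with tomatidine (all higher). Of all genes, 4.6% were higher and 4.9% lower at that p of 0.05 with ursolic acid, and 4.58% higher and 5.32% lower with tomatidine. On the mean of all probes of a gene, 4 members rose and 2 fell (Snrpb and Snrpa1) with ursolic acid, where 2.61% of all genes rose and 2.9% fell, and 2 rose and 2 fell (Snrpb and Hnrnpul1) with tomatidine, where 2.51% rose and 3.5% fell. The methods' t-test also gave 0 members at an adjusted p of 0.1. Of all probes, 0.00778% passed that adjusted threshold with ursolic acid and 0.0973% with tomatidine.

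The members as a whole moved little. The median log2 change of the 49 members was 0.02 with ursolic acid and 0.01 with tomatidine, beside -0.00 over all genes in each comparison. For the 32 brighter members the medians were 0.04 and 0.02, beside -0.00 and -0.01 over all genes of like signal. The members spanned log2 changes from -0.16 (Snrpb, in both comparisons) to 0.28 with ursolic acid and 0.24 with tomatidine. With ursolic acid 31 of the 49 lay above 0, and with tomatidine 27 did, beside 8252 and 8194 of all 16593 genes. Of the 32 brighter members 20 and 17 lay above 0. Whole muscle was measured, so fewer cells of a type and less RNA per cell cannot be told apart.

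**Figure D1:**
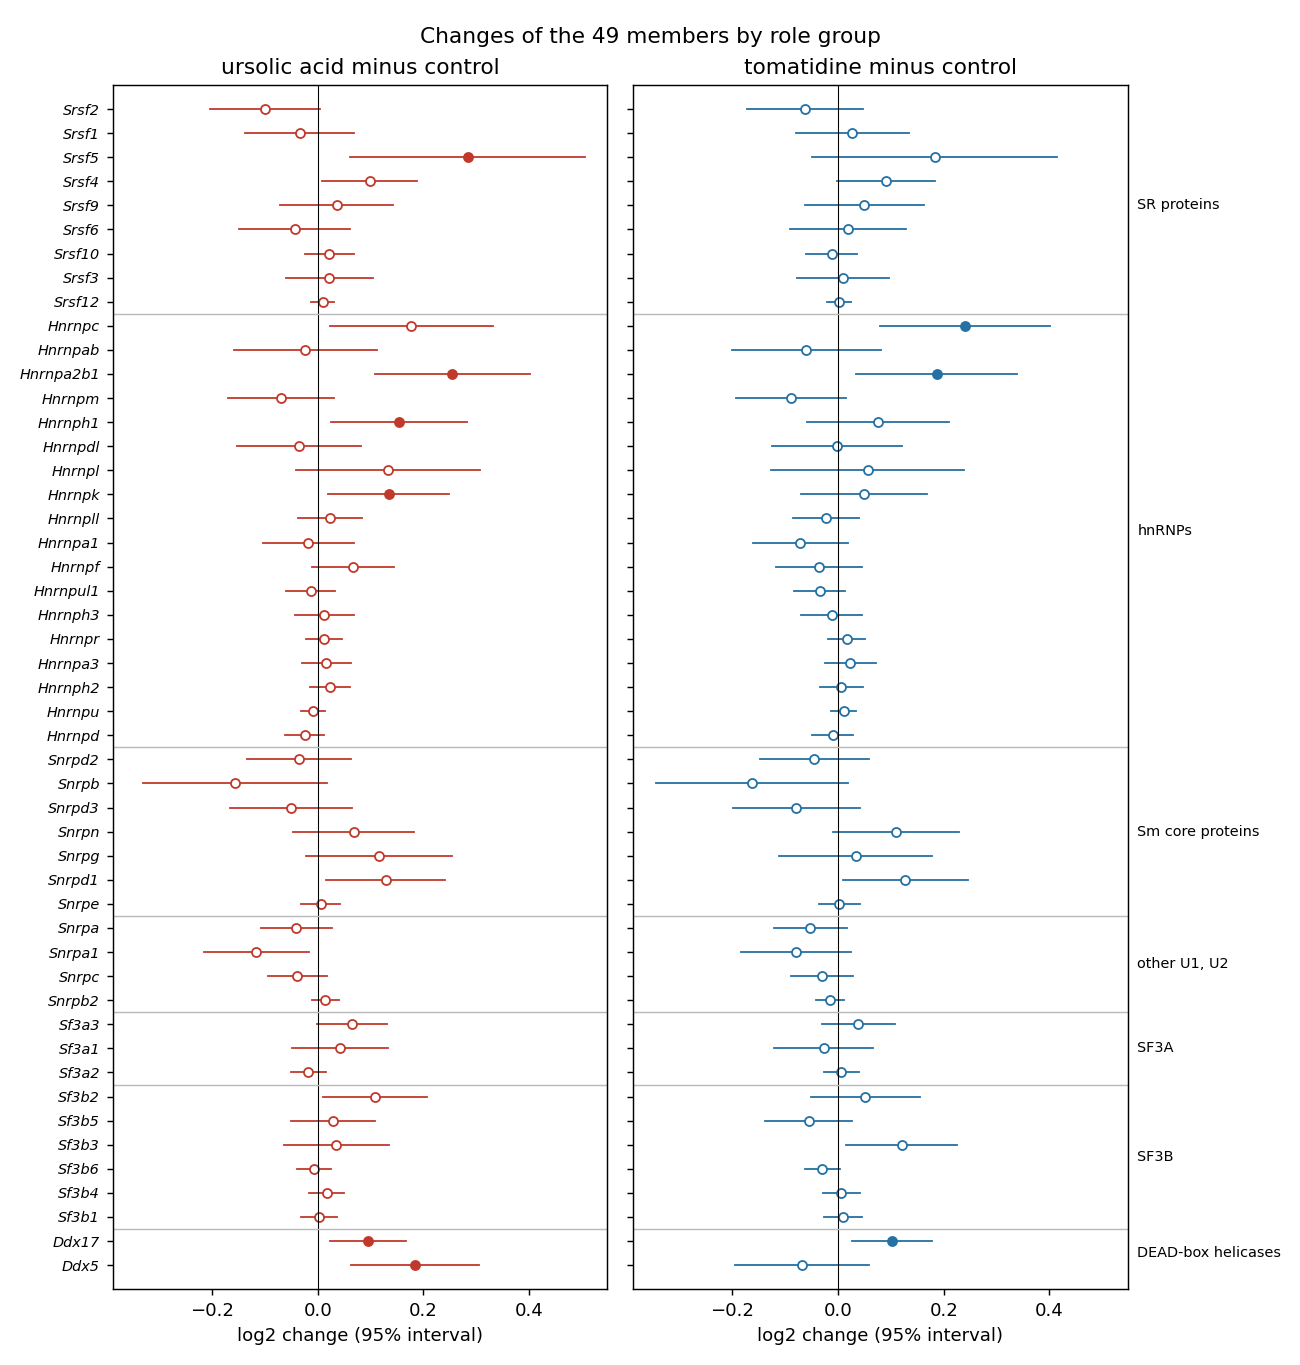
Log2 change with ursolic acid (left) and tomatidine (right) against control for the 49 members, ordered by role, with 95% intervals from the limma fit. Filled points passed an unadjusted p of 0.025, which 6 members did with ursolic acid and 3 with tomatidine, all of them SR proteins, hnRNPs or DEAD-box helicases.

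The promoters of these genes were read for features that the choice by symbol did not use. RefSeq promoter windows (assembly GRCm38.p6, 250 bases before to 50 bases after a transcription start) were found for 44 of the 49 members, 63 windows in all. They were rich in G and C (median 60.7%, against 52.7% over 32851 windows of 27025 genes) and in CpG dinucleotides (median 26 per window, against 7). Searched on both strands, the core of the cAMP response element, TGACG, was in 42.9% of member windows and 20.8% of all windows, and the GC box GGGCGG in 65.1% and 35.7%. CCAAT boxes were in 42.9% and 37.4%, the E-box CACGTG in 12.7% and 7.15%, and TATAAA in 14.3% and 13.6%. TGATGNAA, the core of the C/EBP-ATF response element that ATF4 binds, was in 3.17% and 3.97%, and among members only in both windows of Hnrnpa2b1. None of these 6 strings contains another, and base composition, which differs between member windows and all windows, enters every one of these shares. All windows here are not limited to genes with signal in muscle or to other splicing genes. The shares count windows, so a gene with more than 1 window counts more than once. Whether member windows differ from those of like genes was not tested. Of the 7 members that rose with either compound, 6 had TGACG, 5 CCAAT and 4 GGGCGG, while over the 44 members 22, 22 and 32 had them. A gene counted if any of its windows held the string, so genes with more windows had more chances of a match. Of the 7, Hnrnph1, Ddx5, Ddx17 and Hnrnpa2b1 had more than 1 window. Windows of 4 of the genes that rose are printed 5′ to 3′ on the strand of the gene, with each match on either strand in capitals, because they show these motifs in different arrangements.
Hnrnpa2b1, chr6:51469845-51470144, minus strand, 1 of 2 windows: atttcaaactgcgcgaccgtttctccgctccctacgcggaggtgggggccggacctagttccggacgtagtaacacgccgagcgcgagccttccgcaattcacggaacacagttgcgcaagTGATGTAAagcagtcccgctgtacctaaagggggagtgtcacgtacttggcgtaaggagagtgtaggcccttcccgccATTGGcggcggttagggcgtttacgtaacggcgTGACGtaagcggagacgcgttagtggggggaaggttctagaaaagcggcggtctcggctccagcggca
Hnrnpc, chr14:52103972-52104271, minus strand: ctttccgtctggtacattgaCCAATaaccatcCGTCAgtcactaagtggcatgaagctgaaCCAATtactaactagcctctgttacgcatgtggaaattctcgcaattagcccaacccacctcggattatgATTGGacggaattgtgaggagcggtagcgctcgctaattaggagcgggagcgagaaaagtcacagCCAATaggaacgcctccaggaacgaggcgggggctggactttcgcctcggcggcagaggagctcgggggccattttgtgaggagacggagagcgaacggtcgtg
Hnrnpk, chr13:58402068-58402367, minus strand: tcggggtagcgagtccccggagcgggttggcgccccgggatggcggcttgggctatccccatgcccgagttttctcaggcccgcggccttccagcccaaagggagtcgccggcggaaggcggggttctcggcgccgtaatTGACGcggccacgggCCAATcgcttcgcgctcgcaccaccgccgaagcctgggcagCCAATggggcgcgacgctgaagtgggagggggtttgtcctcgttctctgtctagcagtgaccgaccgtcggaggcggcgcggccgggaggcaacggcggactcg
Srsf5, chr12:80945249-80945548, plus strand: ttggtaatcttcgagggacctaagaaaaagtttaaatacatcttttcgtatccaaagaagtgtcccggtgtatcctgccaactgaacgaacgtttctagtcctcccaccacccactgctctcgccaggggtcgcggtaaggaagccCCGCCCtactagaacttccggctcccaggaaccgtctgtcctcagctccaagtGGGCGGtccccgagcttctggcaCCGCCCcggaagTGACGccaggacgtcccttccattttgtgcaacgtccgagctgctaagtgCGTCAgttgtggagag
The Hnrnpa2b1 window held 1 match each to TGATGNAA, CCAAT and TGACG, and the Hnrnpc window 4 matches to CCAAT and 1 to TGACG. The Hnrnpk window had 2 matches to CCAAT and 1 to TGACG at 70.7% G and C, and the Srsf5 window 3 matches to GGGCGG, 2 to TGACG and none to CCAAT. A match is a string of letters and was not tested as a binding site.

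Among the SR proteins, Srsf5 rose with ursolic acid and the other 8 did not pass the threshold with either compound. Srsf5 encodes an SR protein that binds enhancers in exons. In control mice 1 to 5 its log2 signal was 9.96, 9.97, 10.30, 10.22 and 10.38, and with ursolic acid it ranged from 10.24 through a median of 10.46 to 10.62. In tomatidine mice 1 to 5 it was 10.41, 10.03, 10.22, 10.46 and 10.62. The groups overlapped, with 5 of 6 ursolic acid mice and 3 of 5 tomatidine mice above every control mouse. The change was 0.28 ± 0.10 (SE) with ursolic acid, a 1.22-fold higher signal (adjusted p = 0.415 by limma), and 0.18 ± 0.11 with tomatidine (adjusted p = 0.662). Srsf5 also had the widest spread between mice of 1 diet among the members. Another probe of Srsf5 showed changes of 0.07 with ursolic acid and -0.07 with tomatidine and did not pass. With ursolic acid the call was lost without control mouse 1 or 2 or without any of ursolic acid mice 2 to 5 (adjusted p 0.461 to 0.636), and in the mean of its probes (0.17, adjusted p = 0.554).

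Srsf4, another SR protein, changed by 0.10 ± 0.04 with ursolic acid and 0.09 ± 0.04 with tomatidine (adjusted p = 0.496 and 0.558). All 6 ursolic acid mice and 4 of 5 tomatidine mice lay above the second highest control mouse, and 2 and 1 of them above the highest, which was control mouse 5. Srsf2, whose protein promotes exon inclusion and stays in the nucleus, showed values in the other direction, -0.10 ± 0.05 and -0.06 ± 0.05 (adjusted p = 0.582 and 0.783). A second Srsf2 probe showed -0.23 and -0.17 (adjusted p = 0.47 and 0.64). Its control mice 1 to 5 read 9.53, 9.65, 9.72, 9.48 and 9.13, so that control mouse 5 was the lowest control there. Srsf1, which helps the U1 snRNP choose among 5′ splice sites, showed -0.03 and 0.03. The remaining 5 members, Srsf3, Srsf6, Srsf9, Srsf10 and Srsf12, changed by less than 0.05 on the log2 scale in size with ursolic acid and by 0.05 or less with tomatidine.

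Among the 18 hnRNPs, 3 rose with ursolic acid and 2 with tomatidine, and none fell. Hnrnpa2b1, whose protein binds pre-mRNA and also carries mRNA in the cytoplasm, was the member that rose with both compounds in this group. Its log2 signal in control mice 1 to 5 was 10.97, 10.89, 10.96, 11.00 and 11.34. With ursolic acid it ranged from 11.13 through a median of 11.28 to 11.41, and in tomatidine mice 1 to 5 it was 11.30, 11.23, 11.29, 11.16 and 11.11. Every mouse on either compound was above control mice 1 to 4, and only 1 of them, on ursolic acid, was above control mouse 5. The changes were 0.25 ± 0.07 (1.19-fold, adjusted p = 0.263) and 0.19 ± 0.07 (1.14-fold, adjusted p = 0.438). Without control mouse 5 they were 0.33 (adjusted p = 0.0521) and 0.26 (adjusted p = 0.0826), both past an adjusted p of 0.1. Leaving out the highest control raises such a change in any case, so these values are no separate support for it. The call with ursolic acid held without any 1 mouse (0.22 to 0.33) and under all 11 other alternatives, although on the mean of its 3 probes the change was 0.086. That with tomatidine was lost without any 1 of 10 mice, namely control mice 1 to 4, tomatidine mice 1 to 3 and ursolic acid mice 2, 4 and 6 (adjusted p 0.457 to 0.644). It was also lost under 6 of the 11 other alternatives (adjusted p 0.425 to 0.724), which were the methods' t-test, subtraction of the array floor, the fit of only the 2 diets, the mean of its probes (0.069), the mouse number as a block (adjusted p = 0.498) and leaving out tomatidine mice 3 and 4. The other 2 probes of Hnrnpa2b1 were dim and changed by -0.01 and 0.02 with ursolic acid and by 0.00 and 0.02 with tomatidine.

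Hnrnpc encodes a nuclear protein that binds uridine-rich tracts in pre-mRNA. Its signal was 11.61, 11.56, 11.63, 11.65 and 11.96 in control mice 1 to 5 and 11.78, 11.91, 12.06, 12.02 and 11.85 in tomatidine mice 1 to 5. With ursolic acid it ranged from 11.76 through a median of 11.85 to 12.03. Control mouse 5 again read like the treated mice, and every treated mouse exceeded the other 4 controls. The change was 0.24 ± 0.08 with tomatidine (1.18-fold, adjusted p = 0.33) and 0.18 ± 0.07 with ursolic acid (1.13-fold, adjusted p = 0.475, above the threshold). Without control mouse 5, the highest control, these values were 0.31 (adjusted p = 0.0857) and 0.25 (adjusted p = 0.14), and both then passed. Without tomatidine mice 3 and 4, which had the highest Hnrnpc signals of their group, the tomatidine call was lost (adjusted p = 0.74), as it was by the methods' t-test (adjusted p = 0.619). A second Hnrnpc probe showed 0.08 with tomatidine and 0.01 with ursolic acid and did not pass.

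Hnrnph1 and Hnrnpk rose with ursolic acid. Hnrnph1 encodes a protein that binds runs of guanosines near splice sites. In control mice 1 to 5 its signal was 10.28, 10.16, 10.32, 10.18 and 10.38, and with ursolic acid it ranged from 10.32 through a median of 10.38 to 10.70. Ursolic acid mouse 3 held that highest value, and the other 5 mice lay between 10.32 and 10.39, beside the upper controls. The change was 0.15 ± 0.06 (1.11-fold, adjusted p = 0.458) with ursolic acid and 0.08 ± 0.06 (adjusted p = 0.788) with tomatidine. Without ursolic acid mouse 3 the first value was 0.10 and the call was lost, and the same happened on leaving out any of control mice 1, 2 and 4, of tomatidine mice 1, 2 and 5, and of ursolic acid mice 1 and 6 (adjusted p 0.461 to 0.668 over these). It was lost as well by the methods' t-test, with the array floor subtracted, in the fit of only the 2 diets and on the mean of its probes (0.063), with adjusted p 0.493 to 0.603. The other 4 probes of Hnrnph1 changed by 0.02 to 0.09 with ursolic acid and by -0.02 to 0.07 with tomatidine.

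Hnrnpk encodes a protein with KH domains that binds cytosine-rich RNA. Its signal was 9.26, 9.11, 9.19, 9.26 and 9.40 in control mice 1 to 5 and ranged from 9.31 through a median of 9.38 to 9.43 with ursolic acid. The ursolic acid mice were close together (SD 0.04, against 0.11 in controls and 0.12 with tomatidine), above all controls but control mouse 5. In tomatidine mice 1 to 5 it was 9.37, 9.17, 9.16, 9.43 and 9.35, so that 2 of the mice read like the lower controls and 3 like the ursolic acid mice. The change was 0.13 ± 0.05 with ursolic acid (1.10-fold, adjusted p = 0.466) and 0.05 ± 0.06 with tomatidine (adjusted p = 0.862). The call with ursolic acid was lost without any 1 of 10 mice (control mice 1 to 4, tomatidine mouse 5 and ursolic acid mice 2 to 6, adjusted p 0.477 to 0.649), and it was 0.17 (adjusted p = 0.246) without control mouse 5. It was also lost with the array floor subtracted (0.21, adjusted p = 0.58) and with dim probes left out (adjusted p = 0.252), and on the mean of its probes it passed at 0.058.

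The other hnRNPs did not pass against control. Hnrnpl, which binds CA repeats, showed 0.13 ± 0.08 with ursolic acid, with 5 of 6 mice above every control, and 0.06 ± 0.09 with tomatidine (adjusted p = 0.685 and 0.909). Hnrnpm, which binds GU-rich RNA, showed -0.07 and -0.09, and Hnrnpa1, a repressor of exon inclusion and relative of Hnrnpa2b1, showed -0.02 and -0.07. Hnrnpab, which binds single-stranded DNA and RNA, showed -0.02 and -0.06. The 7 dim hnRNPs, among them Hnrnpu and Hnrnpd, changed by -0.03 to 0.02 in both comparisons. Hnrnpl, Hnrnpm and Hnrnpa1 are named here after their values were seen.

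**Figure D2:**
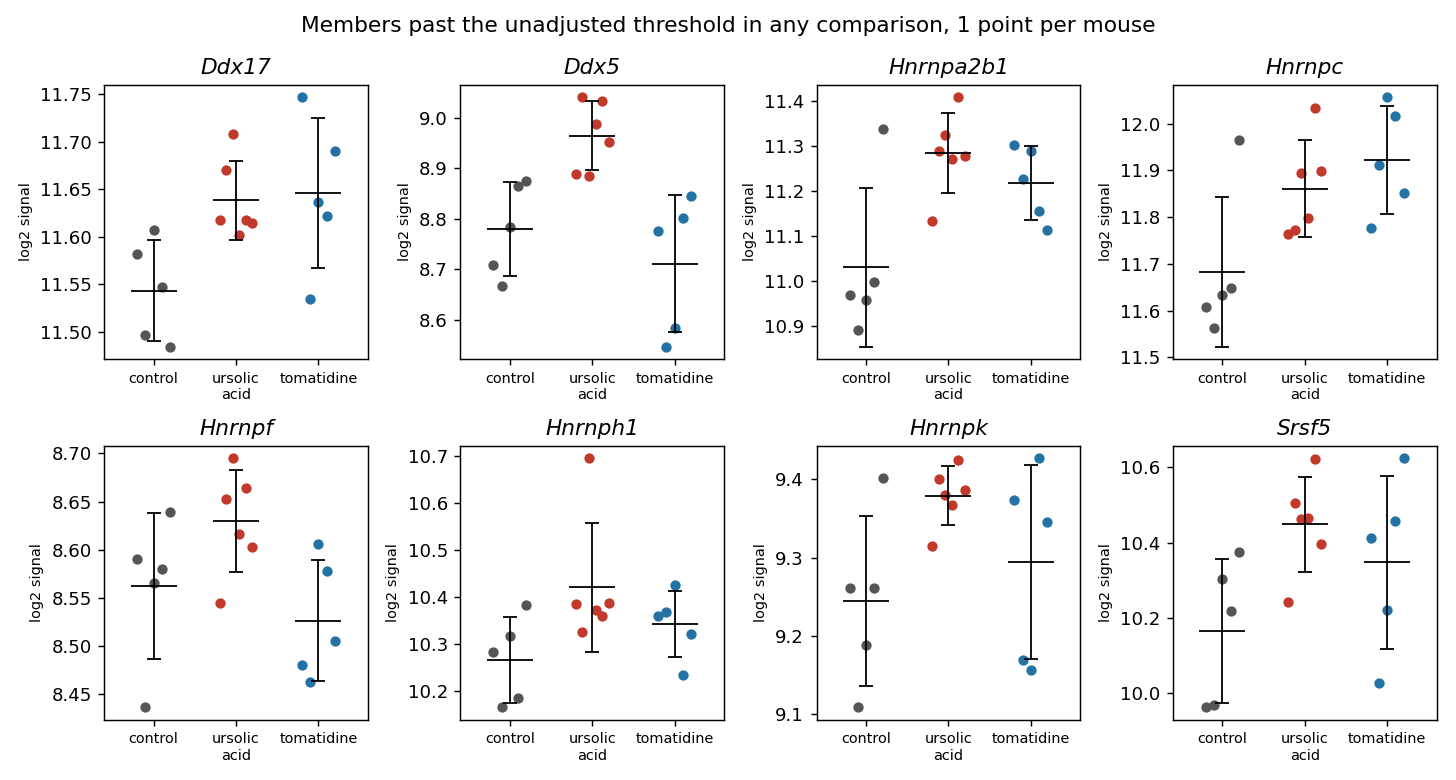
Log2 signal of the 8 members that passed the unadjusted threshold in any comparison, 1 point per mouse, with the mean (long bar) and SD (whiskers) of each diet (control n = 5, ursolic acid n = 6, tomatidine n = 5) on its own vertical scale, which does not start at 0. For Hnrnpa2b1 and Hnrnpc 1 control mouse, mouse 5, lay at 11.34 and 11.96 among the treated mice, and for Ddx5 every ursolic acid mouse lay above every other mouse.

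Ddx5 and Ddx17 encode closely related DEAD-box RNA helicases that act in splicing and microRNA processing and, in mouse myoblasts, as coactivators of MyoD. Both rose with ursolic acid, and only Ddx17 rose with tomatidine. Ddx5 signal was 8.71, 8.67, 8.78, 8.87 and 8.87 in control mice 1 to 5, and 8.78, 8.55, 8.58, 8.80 and 8.84 in tomatidine mice 1 to 5. With ursolic acid it ranged from 8.88 through a median of 8.97 to 9.04. Every ursolic acid mouse exceeded every control and every tomatidine mouse, and Ddx5 was the 1 member whose groups did not overlap in either of these comparisons. Among all genes, 0.603% lay wholly higher with ursolic acid than with control, and 0.319% wholly higher with ursolic acid than with tomatidine. The change was 0.18 ± 0.06 with ursolic acid (1.14-fold, adjusted p = 0.336) and -0.07 ± 0.06 with tomatidine (adjusted p = 0.797). The call with ursolic acid held without any 1 mouse (0.16 to 0.21) and under the 11 other alternatives, but its size moved from 0.094 on the mean of both probes to 0.36 with the array floor subtracted. The second Ddx5 probe was dim and changed by 0.00 and -0.01.

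Ddx17 signal was 11.58, 11.50, 11.61, 11.55 and 11.48 in control mice 1 to 5 and 11.75, 11.54, 11.64, 11.62 and 11.69 in tomatidine mice 1 to 5, and it ranged from 11.60 through 11.62 to 11.71 with ursolic acid. Of the treated mice, 5 of 6 on ursolic acid and 4 of 5 on tomatidine were above every control mouse. The changes were small, 0.09 ± 0.03 and 0.10 ± 0.04 (both 1.07-fold, adjusted p = 0.401 and 0.384). Control mice 2 and 5 each decided both calls, which were lost on leaving out either of them, and so did mice 2 and 3 on ursolic acid for the first call (adjusted p 0.475 to 0.558) and mice 1 and 5 on tomatidine for the second (adjusted p 0.402 to 0.56). Both calls were also lost with the array floor subtracted (adjusted p = 0.753 and 0.732), under an intensity trend with robust estimates (0.635 and 0.614) and on the mean of the probes (0.025 and 0.031 on the log2 scale). The first was lost with dim probes left out (adjusted p = 0.255), and the second by the methods' t-test (adjusted p = 0.652) and in the fit of only the 2 diets (adjusted p = 0.549).

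No Sm core protein passed the threshold on the probe that stood for its gene. Snrpb, which encodes the SmB protein of the ring, showed -0.16 ± 0.08 with ursolic acid and -0.16 ± 0.09 with tomatidine (adjusted p = 0.612 and 0.6), with control mouse 1 far above the other controls at 11.60 against 11.22 to 11.33. A second Snrpb probe did pass and was lower with both compounds. On it, control mice 1 to 5 read 9.06, 9.19, 9.01, 9.09 and 9.16, tomatidine mice 1 to 5 read 9.10, 8.91, 8.98, 9.00 and 9.04, and ursolic acid mice ranged from 8.92 through a median of 8.94 to 9.03. Only 1 ursolic acid mouse was above any control. The changes on this probe were -0.15 ± 0.04 (adjusted p = 0.205, the smallest of any member probe with ursolic acid) and -0.10 ± 0.04 (adjusted p = 0.41).

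Snrpd1, which encodes another protein of the ring, had 2 probes that showed 0.13 and 0.12 with ursolic acid and 0.13 and 0.11 with tomatidine (adjusted p 0.48 to 0.57). In control mice 1 to 5 the first probe read 9.57, 9.48, 9.62, 9.52 and 9.73, and in tomatidine mice 1 to 5 it read 9.71, 9.64, 9.80, 9.78 and 9.64. All 5 tomatidine mice and 5 of 6 ursolic acid mice were above control mice 1 to 4. Without control mouse 5, again the highest control, both values were 0.16 and passed (both adjusted p = 0.284). Snrpd2, a further protein of the ring, showed -0.04 with both compounds, and Snrpd3, Snrpe, Snrpg and Snrpn did not pass either. A second Snrpn probe near the bottom of the scale rose by 0.07 with tomatidine (adjusted p = 0.42).

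Of the 4 other snRNP proteins none passed. Snrpa1, a protein of the U2 snRNP, showed -0.12 ± 0.05 with ursolic acid and -0.08 ± 0.05 with tomatidine (adjusted p = 0.472 and 0.683). Its control mice 1 to 5 read 8.98, 9.11, 8.99, 8.95 and 8.87 and its ursolic acid mice 8.76 to 9.00 with a median of 8.87, with control mouse 5 among the treated mice once more. Without that mouse, here the lowest control, the ursolic acid value was -0.14 and passed (adjusted p = 0.306). It also passed as lower after quantile normalization (-0.12, adjusted p = 0.46), under an intensity trend (-0.12, adjusted p = 0.47) and on the mean of its probes (-0.069, adjusted p = 0.346). Snrpa and Snrpc, both of the U1 snRNP, showed -0.04 with ursolic acid and -0.05 and -0.03 with tomatidine, and Snrpb2 was dim.

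The subunits of SF3A and SF3B, which hold the U2 snRNP at the branch point, did not pass with either compound. Sf3b2 showed 0.11 ± 0.05 with ursolic acid (adjusted p = 0.501) and 0.05 ± 0.05 with tomatidine. Sf3b3 showed 0.12 ± 0.05 with tomatidine (adjusted p = 0.477) and 0.04 ± 0.05 with ursolic acid. Both had their highest control value in control mouse 5, and without it Sf3b2 passed with ursolic acid at 0.14 (adjusted p = 0.32) and Sf3b3 with tomatidine at 0.16 (adjusted p = 0.172). Sf3a3 showed 0.06 and 0.04, Sf3a1 showed 0.04 and -0.03, and Sf3b5 showed 0.03 and -0.06. The probe for Sf3b1, the subunit that contacts the branch point, was at the bottom of the scale (mean 8.03) and showed 0.00 and 0.01.

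Probes of 1 gene did not always agree, and the gene-level values above are those of the brightest probe. Over all 90 probes, 6 rose and 1 fell with ursolic acid and 4 rose and 2 fell with tomatidine, where 2.58% of all probes rose and 2.72% fell with ursolic acid, and 2.25% rose and 3.12% fell with tomatidine. The probes that fell were the second Snrpb probe with both compounds and a dim Hnrnpul1 probe with tomatidine (-0.06). Of the 7 members that rose, none had a second probe that passed in the same comparison. When all probes of a gene were averaged, dim ones included, Ddx17 lost both calls, Hnrnpa2b1 that with tomatidine, and Srsf5 and Hnrnph1 theirs with ursolic acid. The same mean added calls that were lower for Snrpb (-0.16) and Snrpa1 (-0.069) and higher for Srsf10 (0.025) with ursolic acid, and lower for Snrpb (-0.13) and Hnrnpul1 (-0.028) and higher for Snrpn (0.092) with tomatidine. The probes read different stretches of a transcript, and the sources used here do not say which exons they cover.

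**Figure D3:**
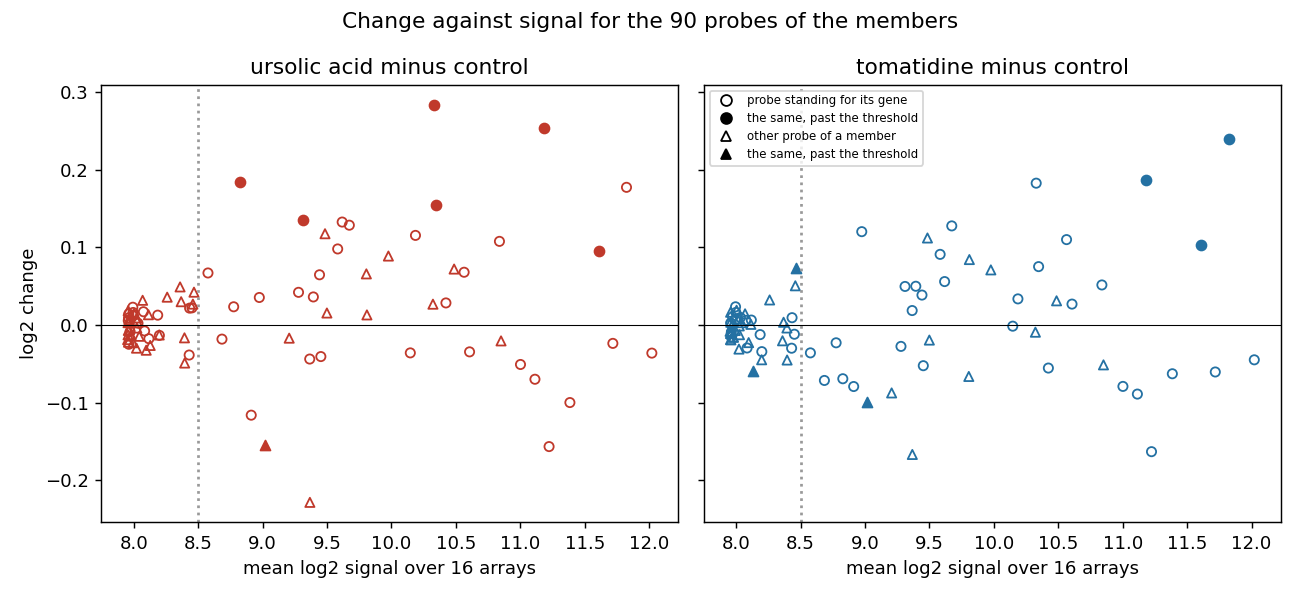
Log2 change of each of the 90 member probes against its mean log2 signal over the 16 arrays, with ursolic acid (left) and tomatidine (right). Circles stand for genes and triangles are their other probes, filled symbols passed the unadjusted threshold, and the dotted line marks 8.5, left of which changes stayed close to 0.

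Between the compounds, 2 members passed, Ddx5 and Hnrnpf, both higher with ursolic acid, where 1.47% of all genes were higher and 1.57% lower. The doses were not matched, so this is a difference between these diets and not between equal amounts of the compounds. Ddx5 differed by 0.25 ± 0.06 (95% interval 0.13 to 0.38, adjusted p = 0.764), with no overlap between the groups. Hnrnpf, which encodes a relative of Hnrnph1 that binds guanosine runs, differed by 0.10 ± 0.04 (interval 0.03 to 0.18, adjusted p = 0.78). Hnrnpf signal was 8.48, 8.46, 8.61, 8.58 and 8.51 in tomatidine mice 1 to 5 and ranged from 8.55 through 8.63 to 8.69 with ursolic acid, so the groups overlapped. Against control it showed 0.07 with ursolic acid and -0.04 with tomatidine, and neither passed. The Hnrnpf difference was lost on leaving out any of tomatidine mice 1, 2 and 5 and of ursolic acid mice 2, 3 and 5 (adjusted p 0.63 to 0.935), and the Ddx5 difference held without any 1 of the 16 mice (0.21 to 0.29). Both differences also held under the 11 other alternatives, but with the array floor subtracted they were 0.52 for Ddx5 and 0.26 for Hnrnpf, and on the mean of both probes Ddx5 differed by 0.13. For Hnrnpa2b1 and Hnrnpc the differences between compounds were 0.07 (interval -0.08 to 0.21) and -0.06 (interval -0.22 to 0.09), and for Srsf5 the difference was 0.10 (interval -0.12 to 0.32).

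Taken over the 32 brighter members, the mean deviation of a mouse from the control mean ranged from -0.05 (control mouse 2) to 0.06 (control mouse 5) among controls. It ranged from -0.00 (ursolic acid mouse 1) to 0.08 (ursolic acid mouse 3) with ursolic acid and from -0.01 to 0.03 with tomatidine. Over all 4498 genes of like signal the same measure stayed between -0.002 and 0.003 in every mouse. The arrays had nearly the same distribution of signals, which holds that mean near 0, so it is no yardstick for the members. Without control mouse 5, which was singled out by these same signals, 11 members passed with ursolic acid, 10 higher and Snrpa1 lower. With tomatidine 5 passed, all higher. In the same fits 2.86% of all genes were higher and 3.6% lower with ursolic acid, and 3.18% higher and 4.06% lower with tomatidine. The genes gained with ursolic acid were Hnrnpc, Sf3b2, Snrpd1, Srsf4, Srsf10 and Snrpa1, and those gained with tomatidine were Sf3b3, Snrpd1 and Srsf4, while Ddx17 was lost in both comparisons. Without control mouse 2 only 2 members passed with ursolic acid (Ddx5 and Hnrnpa2b1) and 1 with tomatidine, and 3 passed with ursolic acid without control mouse 1. Of all genes, 5.25% and 5.52% passed in either direction without control mouse 2, with ursolic acid and with tomatidine, and 4.51% with ursolic acid without control mouse 1. Without tomatidine mice 3 and 4, an alternative chosen after the data were seen, 8 members passed with ursolic acid, and with tomatidine Ddx17 was higher (0.11, adjusted p = 0.643) and Hnrnpa1 lower (-0.12, adjusted p = 0.608), where 6.02% and 4.23% of all genes passed in either direction.

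**Figure D4:**
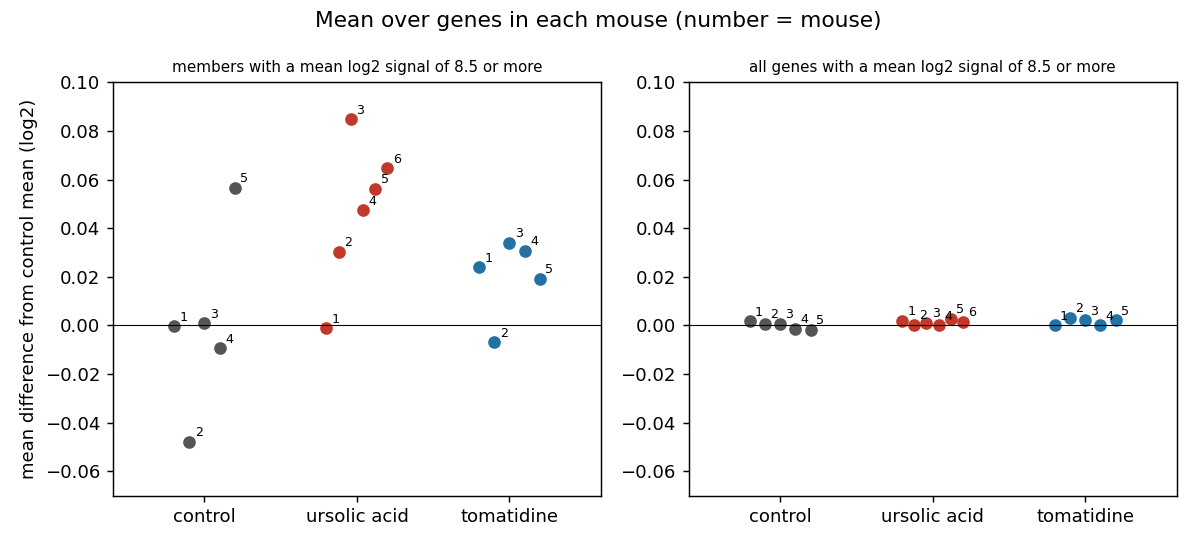
Mean log2 difference from the control mean over the 32 members (left) and all 4498 genes (right) with a mean log2 signal of 8.5 or more, 1 numbered point per mouse. Control mouse 5 at 0.06 lay among the ursolic acid mice on the left. No mouse left the range of -0.002 to 0.003 on the right, where the nearly equal distributions of the arrays hold the mean near 0.

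The rest of the splicing machinery was described from 10 lists with 152 genes, of which 133 were measured and 81 had a mean signal of 8.5 or more. With ursolic acid 4 of the 133 rose and 8 fell, with tomatidine 2 rose and 9 fell, and between the compounds 4 were higher with ursolic acid and 0 lower. Of all genes, 2.81% rose and 2.86% fell with ursolic acid, and 2.68% and 3.38% with tomatidine. Between the compounds 1.47% were higher and 1.57% lower. Of the 81 brighter genes, 2 rose and 4 fell with ursolic acid, where 6.2% and 6% of all genes of like signal did. With tomatidine 1 rose and 5 fell, where 5.71% and 7.65% did. The median log2 changes of the 133 were -0.01 with each compound, and none reached an adjusted p of 0.1 by limma. The exon junction complex and SR-related coactivators held 3 of the genes that rose with ursolic acid and both that rose with tomatidine, out of 15 measured. Tra2a, an SR-like protein that binds exonic enhancers, rose by 0.15 and 0.14 (adjusted p = 0.229 and 0.25). Thrap3 (0.02 and 0.03) rose with both compounds and Tra2b (0.02) with ursolic acid, both on probes near the bottom of the scale, and Sap18, equally dim, fell with both (-0.02 and -0.04).

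Among 15 hnRNP-like proteins under other symbols 2 fell with each compound and none rose. Cirbp and Rbm3, which encode small cold-inducible RNA-binding proteins, showed -0.15 and -0.19 with ursolic acid and -0.27 and -0.43 with tomatidine. The Cirbp values passed with both compounds (adjusted p = 0.404 and 0.151) and those of Rbm3 with tomatidine (adjusted p = 0.63 and 0.224). Rbmx, a relative of the hnRNPs, fell by 0.09 with ursolic acid (adjusted p = 0.468). Of 8 SR protein kinases, Clk4, which phosphorylates SR proteins, fell with both compounds (-0.10 and -0.08, adjusted p = 0.327 and 0.448).

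Of 8 Lsm proteins, most of which form the ring on U6 RNA, Lsm4 fell with ursolic acid (-0.09) and Lsm5 with tomatidine (-0.17). Slu7, needed for choice of the 3′ splice site, fell with both (-0.08 and -0.05, adjusted p = 0.158 and 0.259) and Aqr, an intron-binding helicase, with ursolic acid (-0.05), out of 20 genes of the Prp19 complex and catalytic step. In the U4/U6.U5 tri-snRNP, Snrnp200, the helicase that unwinds the U4 and U6 RNAs, and Usp39 fell with tomatidine (-0.08 and -0.09), out of 15. U2af2, the receptor of the polypyrimidine tract, fell with tomatidine (-0.05), out of 11 genes of U2 recruitment. Prmt5, which methylates Sm proteins, fell with ursolic acid (-0.12, adjusted p = 0.458), and Clns1a and Gemin6 of the same list of 15 snRNP assembly genes were 0.08 and 0.07 higher with ursolic acid than with tomatidine. Of 20 tissue splicing regulators Raver1 rose with ursolic acid (0.09, adjusted p = 0.302), and none of the 6 measured U1 partners passed.

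**Figure D5:**
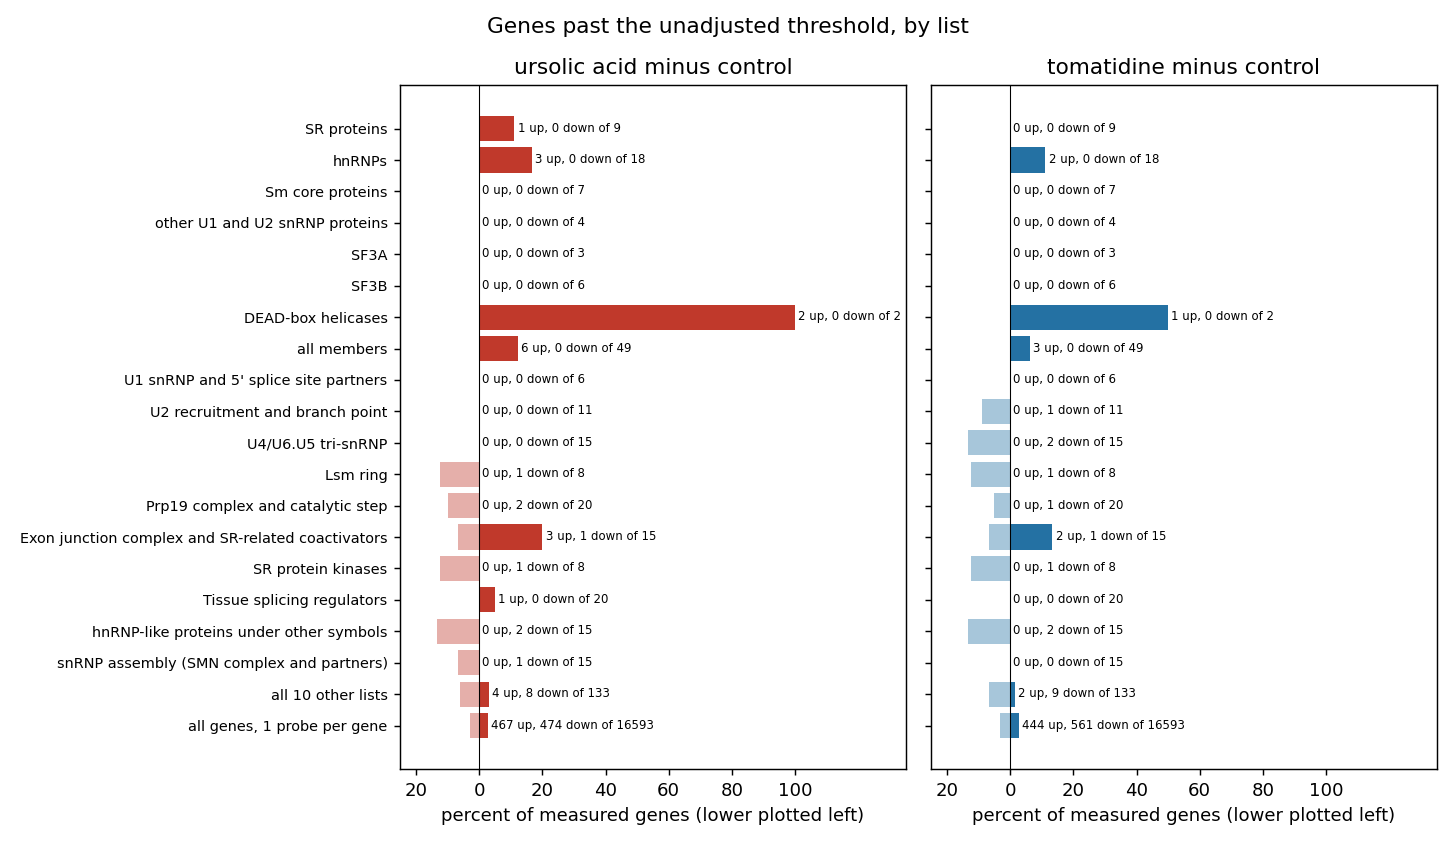
Percent of measured genes past the unadjusted threshold in each role group of the members, in 10 lists of other splicing genes and in all genes, for ursolic acid (left) and tomatidine (right) against control, with higher genes drawn to the right of 0 and lower genes to the left. The members had 6 higher and 0 lower of 49 with ursolic acid, and the 10 other lists had 4 higher and 8 lower of 133. Of all genes, 2.81% were higher and 2.86% lower with ursolic acid. Among all genes with a mean signal of 8.5 or more, 6.2% were higher and 6% lower. At that signal 6 and 0 of 32 members were, and 2 and 4 of 81 genes in the other lists.

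Markers of other cells of muscle moved with the diets in part. With ursolic acid, Emcn (1 of 5 endothelial markers, 0.30), Rgs5 (1 of 3 smooth muscle and pericyte markers, 0.20) and Adig (1 of 7 adipocyte markers, 0.32) rose, and the muscle fibre genes Ckm (-0.10) and Myh4 (-0.26) fell, 2 of 8. With tomatidine 3 of 7 adipocyte markers rose (Adig 0.45, Adipoq 0.48 and Cidec 0.49) and 2 lay below 0. Of all genes, 2.81% rose and 2.86% fell with ursolic acid, and 2.68% and 3.38% with tomatidine. With ursolic acid 5 of 5 endothelial, 3 of 3 smooth muscle, 6 of 7 adipocyte and 2 of 8 fibre markers lay above 0. So did 2 of 5 fibroblast and 1 of 5 macrophage markers. With tomatidine these counts were 4 of 5, 3 of 3, 5 of 7, 2 of 8, 4 of 5 and 5 of 5. The lowest adipocyte marker with either compound was Lep, which showed -0.20 with tomatidine and -0.11 with ursolic acid and did not pass. The mean signal of the adipocyte list was 8.32 to 8.72 in control mice, 8.26 to 8.69 with ursolic acid and 8.46 to 8.73 with tomatidine, that of the endothelial list 8.80 to 9.02, 8.85 to 9.12 and 8.87 to 9.06, and that of the smooth muscle list 9.58 to 10.02, 9.76 to 10.18 and 9.73 to 10.05. The macrophage list ranged over 8.30 to 8.69, 8.27 to 8.52 and 8.29 to 8.84, and the fibroblast list over 9.69 to 9.93, 9.57 to 9.88 and 9.68 to 10.44, with no marker past the threshold against control. The erythroid list (Hba-a1 and Alas2 measured) ranged over 10.36 to 11.21, 11.05 to 11.45 and 10.70 to 12.41, and neither gene passed, nor did the 1 measured Schwann cell marker. Between the compounds, where Ddx5 and Hnrnpf passed, 2 of 5 fibroblast markers (Col3a1 -0.10 and Pdgfra -0.23), 1 of 5 macrophage markers (Cd163 -0.13) and 2 of 7 adipocyte markers (Adipoq -0.45 and Cidec -0.42) were lower with ursolic acid than with tomatidine, and all 5 fibroblast and all 5 macrophage markers lay below 0. Satellite cell and lymphocyte markers were at the bottom of the scale in every mouse (7.94 to 8.02). The part of these cells in the changes of the 49 members was not tested.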

How the data were processed

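RNA from quadriceps femoris of 16 mice was amplified, labeled and hybridized to Illumina Mouse Ref-8 version 2 BeadChip arrays with 1 colour, 1 array per mouse. The authors scanned the arrays with an iScan reader, extracted the data with BeadStudio and deposited log2 signals whose distributions were nearly the same on every array. Background correction, normalization, detection calls, slides and scan dates: not given in the sources used here. Every array column matched 1 mouse by its title, and the deposited log2 values were used without further normalization or filter, which may compress changes of dim probes.

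A linear model with 1 mean per diet and 13 residual degrees of freedom was fitted to each of 25697 probes in R 4.3.3 by lmFit and eBayes of limma 3.58.1. Benjamini-Hochberg adjustment covered all probes, and a gene passed at an unadjusted p of 0.025 or an adjusted p of 0.1. The study set these cutoffs for an unpaired t-test and a false discovery rate. The platform's annotation named the probes (23978 with 1 symbol, 1719 with none), and all 90 member probes matched a RefSeq gene with the same symbol. The brightest probe stood for its gene, also in the 10 lists of other splicing genes and the 10 lists of cell markers. The members and lists were chosen with earlier results of these data known.

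Genes named in the text are every member that passed in any comparison. To these were added, in each role group, the 2 members with the highest mean signal and the 1 with the smallest p for each compound (22 members in all), and up to 4 genes that passed in each other list. Others are said to be chosen after their values were seen, as are Srsf10, Snrpc, Sf3b1, Snrpn, Hnrnpul1 and the members given only by name. Alternatives were the methods' t-test, centring, quantile normalization, subtraction of the array floor (1st percentile, offset 16), only the 2 diets compared, an intensity trend with robust estimates, array weights, a filter at a mean signal of 8.5, the mean of a gene's probes, the mouse number as a block and leaving out each mouse. Leaving out tomatidine mice 3 and 4 was added after the data were seen. The fit was tested on simulated data. No protein sequence or probe sequence was used here. With 5 or 6 arrays per diet, the number of arrays limits precision.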

Additional observations from a re-analysis of the deposited data

Results flagged for a closer look

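The difference between ursolic acid and tomatidine passed the unadjusted threshold for Ddx5 (0.25, adjusted p = 0.764 by limma) and Hnrnpf (0.10, adjusted p = 0.78), at unmatched doses.

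In 66 groups of mice (22 named members in 3 diets) 6 single values stood apart from the rest of their group by Dixon's test, of which chance gives about 1 in 20 groups. Control mouse 5 had the highest control signal of Hnrnpa2b1 (11.34, next 11.00) and of Hnrnpc (11.96, next 11.65). Control mouse 1 was highest for Snrpb (11.60, next 11.33) and control mouse 4 lowest for Sf3a3 (9.29, next 9.42). Ursolic acid mouse 3 was highest for Hnrnph1 (10.70, next 10.39), and ursolic acid mouse 1 lowest for Snrpd1 (9.52, next 9.72).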

How the results depend on the processing

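The calls of Ddx5 and Hnrnpa2b1 with ursolic acid, and of Ddx5 between the compounds, held under all 11 alternatives and without any 1 mouse. Where 6, 3 and 2 members passed with ursolic acid, with tomatidine and between the compounds, 3 passed with ursolic acid and 1 with tomatidine once the array floor was subtracted. In that fit 4.74% and 5.15% of all genes passed. With tomatidine 0 passed by the methods' t-test (4.41% of all genes) and 1 when only the 2 diets compared were fitted (5.28%). Between the compounds 4 passed on the mean of a gene's probes (2.88%). Where 12, 11 and 4 other splicing genes passed, 6 and 7 passed with ursolic acid and tomatidine after the floor was subtracted, 7 with ursolic acid and 2 between the compounds under an intensity trend with robust estimates, 4, 4 and 1 when dim probes were left out (2 of them, with tomatidine, at an adjusted p of 0.1), and 2 between the compounds without tomatidine mice 3 and 4. The cause of these shifts was not tested. The fits without dim probes held fewer probes, and those without some mice held fewer mice. Of all genes, 5.26% passed with ursolic acid and 2.8% between the compounds under the trend, and 2.37% between the compounds without tomatidine mice 3 and 4. With dim probes left out, 10.1%, 11.5% and 3% of the 4498 genes passed. Leaving out 1 mouse gave 2 to 11, 1 to 5 and 1 to 3 members and 7 to 17, 8 to 14 and 0 to 6 other splicing genes. In those fits 4.51% to 6.46%, 4.72% to 7.8% and 2.59% to 4.47% of all genes passed. Signs turned for 4 values, none of which passed. Over the mice left out, Hnrnpab with ursolic acid ranged from -0.056 to 0.016 (above 0 without control mouse 2 or ursolic acid mouse 2) and Sf3a1 with tomatidine from -0.049 to 0.0060 (above 0 without tomatidine mouse 5). Srsf1 ranged from -0.083 to 0.0053 with ursolic acid (above 0 without control mouse 1) and from -0.021 to 0.067 with tomatidine (below 0 without control mouse 5).

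No label used here says that a mouse number pairs mice across diets. Of 10 same-number pairs with a control mouse none had deviations that correlated above 0.1 (r -0.24 to 0.09), and of 5 pairs of an ursolic acid and a tomatidine mouse 4 did (r -0.10 to 0.32), so the numbers were not taken as pairs. With the number as a replicate block, 8, 4 and 2 members and 12, 12 and 5 other splicing genes passed, and among the members that had passed Hnrnpa2b1 lost its call with tomatidine (adjusted p = 0.498). In that fit 4.85%, 6.15% and 3.04% of all genes passed. For the 17 members with a mean signal under 8.5, and for most probes, changes may be compressed and missed. Sizes of some members above 8.5 depended on the array floor too. With it subtracted, the ursolic acid change went from 0.18 to 0.36 for Ddx5 and from 0.13 to 0.21 for Hnrnpk. For the brighter Ddx17 it went from 0.09 to 0.10.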
